A study of Mus musculus with 3 samples.

Results

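The genes described here are 10 members of the Toll-like receptor (TLR) system of the mouse, taken by symbol from the 16072 named genes of the deposited expression table. They are the cell surface receptors Tlr1, Tlr2, Tlr4 and Tlr6, the endosomal receptors Tlr7, Tlr9 and Tlr13, the co-receptors Cd14 and Ly96, and the adaptor Myd88. Their NCBI Gene numbers are, in that order, 21897, 24088, 21898, 21899, 170743, 81897, 279572, 12475, 17087 and 17874. RNA-seq was carried out on Ly6G+ myeloid cells from the bone marrow (BM) of C57BL/6 mice, with 2 AAV-Ctrl libraries and 1 AAV-IL-27 library, each from 1 mouse. Mice of the study were 6 to 10 weeks old. All these mice carried B16.F10 melanoma cells, injected under the skin 1 week before the vector went into the muscle, and BM Gr-1+ cells were taken for RNA-seq 3 weeks after the vector, a time the sample labels do not repeat. The AAV-IL-27 vector, built on adeno-associated virus, encodes the EBI3 and p28 chains of IL-27 joined by a linker, behind a CMV and chicken β-actin promoter that is not restricted to the sorted cells. AAV-Ctrl is the empty vector. The number of mice in the design text (4) is larger than the number it assigns to groups, and a further AAV-IL-27 column in the table matches no listed sample and was not analysed here.

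TLRs are sentinel receptors that bind conserved microbial molecules outside the cell or in endosomes. TLR4 recognises lipopolysaccharide (LPS) together with MD-2, the product of Ly96, after CD14 has handed the LPS over, and TLR2 pairs with TLR1 or TLR6 to recognise bacterial lipoproteins. TLR7 and TLR9 sense single-stranded RNA and CpG DNA in endosomes, and TLR13, which humans lack, senses a stretch of bacterial ribosomal RNA. MyD88 joins almost all of these receptors to the IRAK kinases and through them to NF-κB, and neutrophils use the system to sense bacteria. In bulk RNA, fewer cells of a type and less RNA per cell cannot be told apart.

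The data are FPKM values, which are fragments divided by transcript length and by all mapped fragments, so levels can be set side by side between genes. Differences are given as log2(FPKM + 1) in AAV-IL-27 minus its AAV-Ctrl mean, a scale on which differences of low genes come out too small. With 1 AAV-IL-27 library, whose replicate spread is unknown, no test was run and no p-value is given. Values given in threes are AAV-Ctrl 1, then AAV-Ctrl 2, then AAV-IL-27. The spacing of low FPKM values gave depths of about 19000000, 19400000 and 19200000 fragments. The labelled cell type was checked against 14 neutrophil genes, all found in every library and led by S100a9 at 73508, 71786 and 68765 FPKM, and Ly6g was at 711.8, 766.1 and 586.3 FPKM.

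The promoter sequences of 4 members are shown, those of Tlr1, which was called lower below, its paralogue Tlr6, the low-level receptor Tlr9 and the shared adaptor Myd88. They were chosen after the motif matches were seen, and no window was listed for Cd14. Each is the 250 bases before a RefSeq transcription start on GRCm38.p6, written 5′ to 3′ on the gene's strand. Capitals mark matches to a gamma-activated site (GAS, TTCNNNGAA, either strand), an interferon-stimulated response element (ISRE, either strand) or the PU.1 core (GAGGAA, either strand).
Tlr1, minus strand, chr5:64933559-64933808: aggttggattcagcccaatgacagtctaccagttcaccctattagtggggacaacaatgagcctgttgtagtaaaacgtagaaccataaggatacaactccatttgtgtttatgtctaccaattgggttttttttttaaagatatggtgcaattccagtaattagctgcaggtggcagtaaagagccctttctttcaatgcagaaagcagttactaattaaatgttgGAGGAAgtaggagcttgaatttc
Tlr6, minus strand, chr5:64959167-64959416: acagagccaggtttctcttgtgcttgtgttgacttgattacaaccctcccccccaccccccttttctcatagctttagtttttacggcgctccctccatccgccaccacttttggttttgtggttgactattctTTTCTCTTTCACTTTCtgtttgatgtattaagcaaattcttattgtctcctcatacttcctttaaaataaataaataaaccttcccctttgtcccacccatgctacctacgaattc
Tlr9, plus strand, chr9:106222348-106222597: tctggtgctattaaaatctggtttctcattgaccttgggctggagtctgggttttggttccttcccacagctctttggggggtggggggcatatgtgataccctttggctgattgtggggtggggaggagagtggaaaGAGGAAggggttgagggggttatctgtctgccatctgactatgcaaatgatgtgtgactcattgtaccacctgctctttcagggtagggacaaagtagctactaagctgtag
Myd88, minus strand, chr9:119340019-119340268: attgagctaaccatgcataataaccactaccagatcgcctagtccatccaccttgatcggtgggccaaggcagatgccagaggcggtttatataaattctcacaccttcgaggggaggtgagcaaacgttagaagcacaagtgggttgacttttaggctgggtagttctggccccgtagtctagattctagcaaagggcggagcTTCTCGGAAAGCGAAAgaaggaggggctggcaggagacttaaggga

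The Myd88 window holds a GAS at bases 46 to 38 before the start that overlaps an ISRE at bases 40 to 31. This window lies inside the annotated Myd88 gene, before an internal start, and not upstream of the annotated 5′ end (119341411). Over all 32851 promoter windows of the same length, 7.02% held a GAS, 2.98% an ISRE, 0.332% both and 23.3% the PU.1 core. The Tlr6 window holds overlapping ISRE matches on the strand opposite to the gene, at bases 116 to 107 and 110 to 101. It lies inside the annotated Tlr6 gene, before an internal start, and holds 0 exon bases. The Tlr1 and Tlr9 windows each hold a PU.1 core, at bases 23 to 18 and 112 to 107. This Tlr1 window spans the annotated 5′ end of the gene. Tlr1 and Tlr6 each have another listed window, not shown. That of Tlr1 (chr5:64932700-64932949) lies inside the annotated gene and holds a GAS at bases 228 to 220. That of Tlr6 (chr5:64960049-64960298) spans the annotated 5′ end of the gene and holds none of the motifs. Windows were listed for 6 of the 10 members, with 8 windows in all, and among them 2 held a GAS, 2 an ISRE, 3 the PU.1 core and 2 none of these. In the annotation, 23 bases of the Myd88 window and 5 of the shown Tlr1 window lie in exons of the same gene. Of the windows not shown, 211 bases of the other Tlr1 window, 159 of the Tlr2, 71 of the Tlr13 and 49 of the other Tlr6 window do so. A match is a match of letters and no binding was measured.

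Myd88, Tlr13 and Tlr2 were the most abundant members in each of the 3 libraries, in that order, and their ranges did not overlap. Myd88 was at 135.48 and 124.1 FPKM in AAV-Ctrl and 122.82 with AAV-IL-27. Its mean level stood at place 532 of the 9130 genes averaging 1 FPKM or more, which are those compared below. Tlr13 was at 112.76, 104.02 and 102.54 FPKM and made up 49.6%, 50.8% and 49.3% of the summed FPKM of the 7 receptors. Together with Tlr2 it accounted for 81.6%, 81.2% and 81.9%. A sensor of bacterial RNA and the lipoprotein receptor thus led the transcripts of these 7 receptors with either vector. Tlr5 and Tlr8, given below, are outside this sum.

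The next levels lay close together. In both AAV-Ctrl libraries the order was Tlr6, Ly96, Cd14 and Tlr4, between 16.86 and 12.68 FPKM, and in AAV-IL-27 Cd14 moved ahead of Tlr6. The ranges of Cd14 and Tlr6 over the 3 libraries overlapped, as did those of Tlr6 and Ly96, while Ly96 stayed above Tlr4. Tlr7 followed at 7.84, 7.56 and 6.92 FPKM. Tlr1 and Tlr9 were lowest and overlapped in range, with Tlr1 above Tlr9 in AAV-Ctrl and below it in AAV-IL-27.

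**Figure D1:**
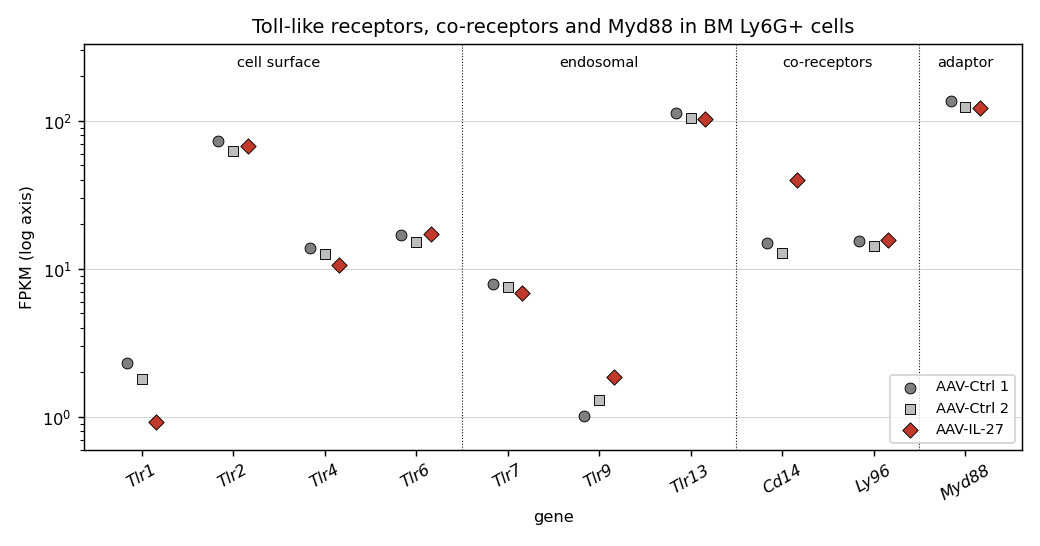
FPKM (log axis) of the 10 members in AAV-Ctrl 1 (circles), AAV-Ctrl 2 (squares) and AAV-IL-27 (diamonds), grouped by role with dotted lines between roles. Cd14 in AAV-IL-27 (39.62) lies well above both AAV-Ctrl points (14.95 and 12.89), and the Tlr1 and Tlr9 points change order.

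Of the 10 members, Cd14 was higher in AAV-IL-27 by at least 1 log2 unit than each AAV-Ctrl library, and 0 members were lower by as much. The same rule was met by 0.307% of the 9130 genes for higher values (28 genes), by 2.32% for lower values (212 genes) and by 2.63% in either direction. At 0.5 log2 units, Cd14 was again the member on the high side, where 1.57% of genes stood, and Tlr1 was the member on the low side, where 7.01% stood, with 8.58% on either side. In total 9 of 10 members lay outside the range of the AAV-Ctrl libraries, 4 above and 5 below. The same held for 80.8% of all genes, 38.9% above and 41.9% below, so this count is near the background. The median log2 difference of the members was -0.033, beside -0.0054 over all genes, and 6 of 10 members lay within 0.2 of 0.

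The AAV-Ctrl libraries differed from each other as well. Among the members, 9 of 10 were lower in AAV-Ctrl 2 than in AAV-Ctrl 1, with a median log2 difference of -0.12 against 0.0016 over all genes. For Tlr2, the 95% Poisson intervals of the estimated fragments did not overlap, running from 3936 to 4187 in AAV-Ctrl 1 and from 3435 to 3670 in AAV-Ctrl 2. These intervals, here and below, cover counting error only. Over all genes, the size of the difference between AAV-Ctrl libraries had a median of 0.0869 and a 99th percentile of 0.571, and 6 of the 7 receptors differed by less than that percentile in AAV-IL-27.

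**Figure D2:**
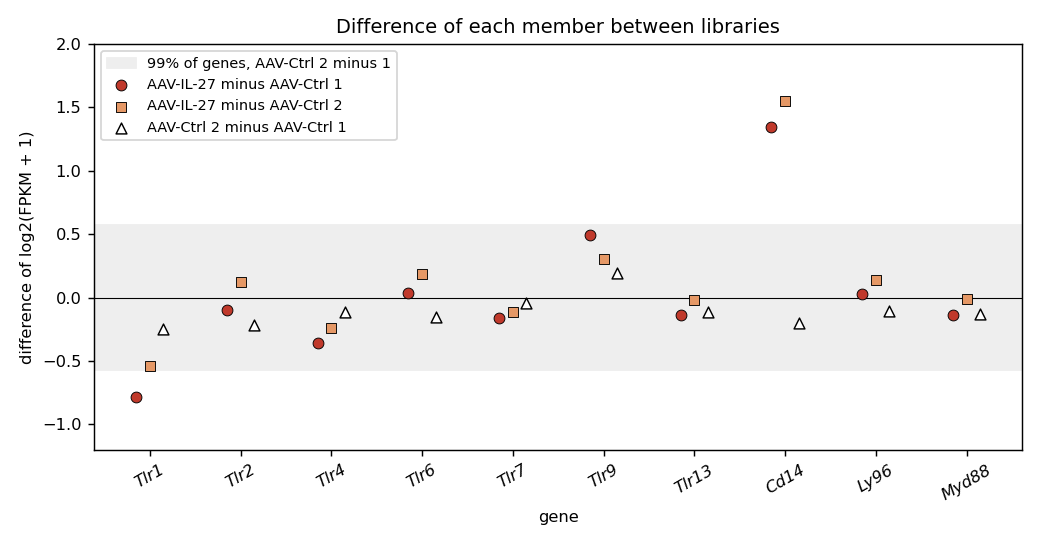
Difference of log2(FPKM + 1) for each member between AAV-IL-27 and AAV-Ctrl 1 (circles), AAV-IL-27 and AAV-Ctrl 2 (squares), and AAV-Ctrl 2 and AAV-Ctrl 1 (triangles), with the band that holds 99% of all genes between the AAV-Ctrl libraries (0.571 either way). Cd14 lies above the band against both AAV-Ctrl libraries (1.35 and 1.55), and Tlr1 lies below it against AAV-Ctrl 1 (-0.79) and just inside it against AAV-Ctrl 2 (-0.54).

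Of the LPS receptor genes, Cd14 was higher in AAV-IL-27, Ly96 was just above its AAV-Ctrl range and Tlr4 was below its own. Cd14 encodes the LPS-binding co-receptor and was at 14.95 and 12.89 FPKM with the empty vector (mean 13.9 ± 1.46, SD, n = 2) and at 39.62 with AAV-IL-27. The AAV-IL-27 library was the high one, 2.85 times the AAV-Ctrl mean, with a log2 difference of 1.45. Ranked by the distance above the nearer AAV-Ctrl library (1.35), Cd14 stood at place 16 of 9130 genes. Its estimated fragments were 446, 393 and 1195, and the interval of the AAV-IL-27 library (1128 to 1265) lay apart from those of AAV-Ctrl 1 (405.6 to 489.4) and AAV-Ctrl 2 (355.1 to 433.8). Cd14 is a gene of 1 exon in the annotation, and no exon of another gene overlaps it.

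The signalling receptor itself, Tlr4 (chromosome 4 from 66827584 to 66930284, plus strand), was lower than in both AAV-Ctrl libraries. It was at 13.84 and 12.68 FPKM in AAV-Ctrl (13.3 ± 0.820, SD, n = 2) and 10.59 with AAV-IL-27. The log2 difference of -0.30 is under the 99th percentile of the AAV-Ctrl difference. Its 815 estimated fragments in AAV-IL-27 (760.0 to 872.9) lay below the intervals of both AAV-Ctrl libraries (991.3 to 1120 and 925.4 to 1050). Ly96 (chromosome 1 from 16688051 to 16709611, plus strand), the MD-2 subunit that sits on TLR4 and holds the lipid, was at 15.38, 14.24 and 15.74 FPKM, with AAV-IL-27 just above the AAV-Ctrl range and a log2 difference of 0.083. There was 1.08 and 1.02 times as much Cd14 as Tlr4 on the FPKM scale in the AAV-Ctrl libraries and 3.74 times as much in AAV-IL-27, while the ratio of Ly96 to Tlr4 was 1.11, 1.12 and 1.49.

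**Figure D3:**
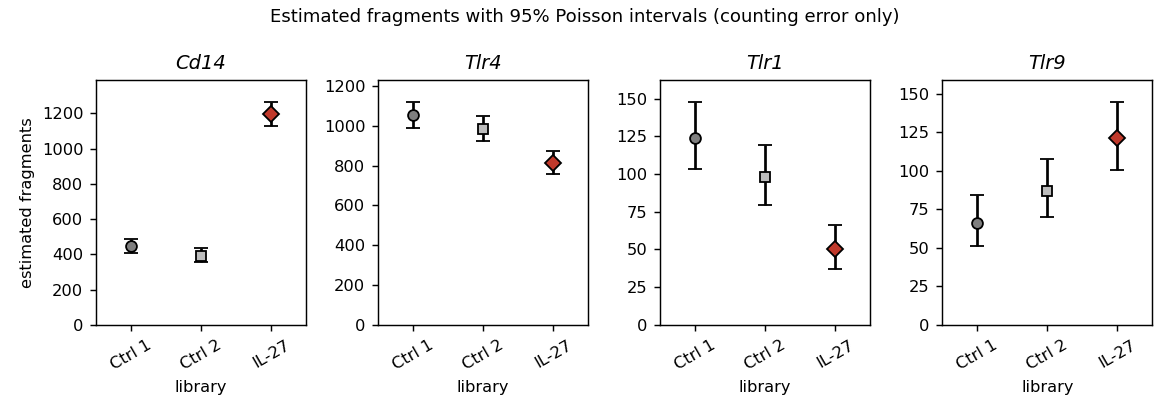
Estimated fragments of Cd14, Tlr4, Tlr1 and Tlr9 in each library (points, each panel with its own axis from 0) with exact 95% Poisson intervals (bars), which cover counting error only. The AAV-IL-27 interval lies above both AAV-Ctrl intervals for Cd14 and below both for Tlr4 and Tlr1, and for Tlr9 it meets that of AAV-Ctrl 2 (69.7 to 107.3 against 100.4 to 144.6).

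Among the lipoprotein receptors, the common partner Tlr2 (chromosome 3 from 83836272 to 83841767, minus strand) was at 72.58 and 62.18 FPKM in AAV-Ctrl and 67.75 with AAV-IL-27, inside the AAV-Ctrl range. Tlr6, which gives the TLR2 complex its preference for diacylated lipoproteins, was at 16.86, 15.07 and 17.3 FPKM, a log2 difference of 0.11. Tlr1, the partner for triacylated lipoproteins, was at 2.31 and 1.79 FPKM in AAV-Ctrl (2.05 ± 0.368, SD, n = 2) and 0.92 with AAV-IL-27. AAV-IL-27 was the low library for Tlr1, at 44.9% of the AAV-Ctrl mean, with a log2 difference of -0.66 and of -0.54 to the nearer AAV-Ctrl library. The estimated fragments of Tlr1 were 124, 98 and 50, and the interval in AAV-IL-27 (37.1 to 65.9) did not meet those of AAV-Ctrl 1 (103.1 to 147.8) or AAV-Ctrl 2 (79.6 to 119.4). The log2 difference of Tlr1 reached -1.14 with a smaller pseudocount and stayed at or below -0.54 in the 6 alternatives tried.

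Tlr1 and Tlr6 lie 18467 bases apart on the minus strand of chromosome 5 (GRCm38, Tlr1 from 64924679 to 64933563 and Tlr6 from 64952031 to 64960097). Their transcripts are 88.8% identical over 1328 aligned bases, so the counting may have divided some fragments between them, and the single values of Tlr1, the rarer transcript, are uncertain to that degree. The ratio of Tlr1 to Tlr6 was 0.137 and 0.119 in AAV-Ctrl and 0.0532 with AAV-IL-27. Against Tlr2, there was 31.4 and 34.7 times as much Tlr2 as Tlr1 in AAV-Ctrl and 73.6 times as much with AAV-IL-27, while the ratio of Tlr2 to Tlr6 was 4.30, 4.13 and 3.92.

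Of the endosomal receptors, Tlr13 (chromosome X from 106143204 to 106160493, plus strand) was within 0.078 log2 units of the AAV-Ctrl mean, at 94.6% of it. Parts of its 4060-base transcript align with transcripts of other genes. The longest alignment is 68.75% identical over 448 bases, and a shorter one 84.3% over 230 bases. Tlr7 (chromosome X from 167304929 to 167330558, minus strand), a sensor of viral RNA, was at 89.9% of its AAV-Ctrl mean, a log2 difference of -0.14. Its 5 listed transcripts range from 384 to 3897 bases, and parts of them are 66.2% identical to Tlr8 over 473 bases. Tlr9 (chromosome 9 from 106222598 to 106226883, plus strand) was at 1.02 and 1.31 FPKM in AAV-Ctrl (1.17 ± 0.205, SD, n = 2) and 1.85 with AAV-IL-27. AAV-IL-27 was the highest of the 3 libraries for Tlr9, with a log2 difference of 0.40, but by 0.30 above the nearer AAV-Ctrl library it did not reach the threshold of 0.5. The estimated fragments were 66, 87 and 121, and the interval of AAV-IL-27 (100.4 to 144.6) overlapped that of AAV-Ctrl 2 (69.7 to 107.3). The ratio of Tlr9 to Tlr7 was 0.130, 0.173 and 0.267.

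The adaptor Myd88 (chromosome 9 from 119335934 to 119341411, minus strand) was the member whose AAV-IL-27 value lay closest below the AAV-Ctrl range, with a log2 difference of -0.078 to the mean and -0.015 to AAV-Ctrl 2. In the annotation, up to 223 bases of an exon of Acaa1a on the opposite strand overlap a Myd88 exon. The libraries are strand-marked, but it is not stated whether the counting used the strand. Unc93b1, which carries endosomal TLRs from the endoplasmic reticulum to endosomes, was at 147.56, 164.05 and 158.1 FPKM, inside the AAV-Ctrl range.

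Of the 5 mouse TLRs outside this group, Tlr5, the flagellin receptor, was at 24.03, 22.31 and 23.08 FPKM, and Tlr8 was at 28.12, 25.79 and 24.72 FPKM. Both were above Tlr4 and Tlr6 in level, and their log2 differences were -0.0045 and -0.12. Tlr3, the receptor for double-stranded RNA, was at 0.09, 0.17 and 0.1 FPKM, an estimated 7, 14 and 8 fragments. Tlr11 was at 0, 0.02 and 0.02 FPKM, or 0, 1 and 1 estimated fragments, where 0 allows up to 3.7. Tlr12 was at 0.25 and 0.57 FPKM in AAV-Ctrl and 0.13 with AAV-IL-27, and its interval in AAV-IL-27 (3.5 to 15.8 fragments) overlapped that of AAV-Ctrl 1 (8.4 to 24.7) and not that of AAV-Ctrl 2 (23.5 to 47.5).

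Of the signalling chain below the receptors, 0 tested genes met the threshold of 0.5 in either direction, beside 8.58% of all tested genes. The count of 0 covers 4 adaptors other than Myd88, 12 IRAK, TRAF and TAK1 complex genes and 10 IKK, NF-κB and IRF genes. Their median log2 differences were -0.0071, 0.054 and 0.12. The median of the kinase list was 0.027 without AAV-Ctrl 2 and 0.090 with equal totals. Tirap, which brings MyD88 to TLR2 and TLR4, was at 34.03, 32.98 and 35.72 FPKM. Ticam1, the TRIF adaptor of TLR3 and TLR4, was at 7.7, 7.93 and 7.2 FPKM. Irak4, the first kinase of the MyD88 complex, was at 30.85, 32.74 and 27.23 FPKM, a log2 difference of -0.22. Nearest to the threshold were Ticam2, at 2.32, 2.44 and 1.4 FPKM, and Irak2, at 30.31, 32.02 and 43.76 FPKM. Ticam2 lay 0.47 log2 units below and Irak2 0.44 above the nearer AAV-Ctrl library. Ticam2 was at 58.8% of its AAV-Ctrl mean, and at so low a level the pseudocount of 1 makes the difference come out smaller.

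Among 11 genes for folding, trafficking and accessory proteins, 4 were lower by at least 0.5 log2 units than both AAV-Ctrl libraries and 0 were higher. Over all genes, 7.01% were lower and 1.57% higher by this rule. The median of the 11 genes was -0.25. Hsp90b1, the chaperone gp96 that most TLRs need in order to fold, was at 42.49, 48.09 and 27.9 FPKM, 61.6% of the AAV-Ctrl mean. Lgmn, a lysosomal protease, was at 28.52, 28.38 and 14.4 FPKM, and Ly86, which encodes the MD-1 partner of the TLR-like protein CD180, at 9.18, 11.81 and 5.22 FPKM. Cd36, a lipid scavenger receptor that also serves TLR2, was at 3.04, 2.37 and 0.31 FPKM, a log2 difference of -1.49 and the largest of this list.

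Of 11 measured inhibitors of the pathway, 2 were higher by this rule and 1 was lower, beside 1.57% and 7.01% of all genes. Their median was 0.18. Socs1, a feedback inhibitor of cytokine and TLR signalling, was at 3.35 and 3.55 FPKM in AAV-Ctrl and 6.97 with AAV-IL-27, 2.02-fold the AAV-Ctrl mean. Usp18, an inhibitor of type I interferon signalling, was at 7.0, 11.13 and 16.95 FPKM, and Lgals3bp was at 25.35, 30.07 and 12.6 FPKM. Irak3, a kinase-like protein that holds back MyD88 signalling, was at 49.05, 48.28 and 54.6 FPKM, a log2 difference of 0.16.

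Genes that TLR ligands induce in myeloid cells were mixed. Of 15 listed genes, 13 were in the table and 10 had a mean FPKM of at least 1. Among these 10, 5 were higher by at least 0.5 log2 units and 0 were lower, with a median of 0.65. Of the 9130 genes compared, 1.57% were higher and 7.01% lower by this rule. Il1a, at 1.07, 0.87 and 0.26 FPKM, averaged under 1 and was not counted, though it lay 0.57 below the nearer AAV-Ctrl library. Over all 13 genes in the table, the median was 0.13. The chemokine genes Ccl3 and Ccl4 were at 39.2 and 16.42 FPKM in AAV-IL-27, 4.34-fold and 4.37-fold their AAV-Ctrl means, and Cxcl10 was at 1.29, 2.85 and 11.8 FPKM. Acod1, which makes itaconate, was at 15.97, 11.65 and 26.44 FPKM. By contrast, Tnf was at 17.21, 17.46 and 17.96 FPKM and Il1b at 500.01, 380.9 and 478.72 FPKM, the latter inside the AAV-Ctrl range. Cxcl1 was listed at 0 in all 3 libraries.

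Of 12 interferon-induced genes, 5 were higher in AAV-IL-27 by at least 0.5 log2 units than both AAV-Ctrl libraries and 0 by at least 1. Over all genes, the shares were 1.57% and 0.307%. All 12 interferon-induced genes lay above the AAV-Ctrl range, where 38.9% of all genes lay. Their median difference was 0.61, while AAV-Ctrl 2 exceeded AAV-Ctrl 1 by a median of 0.31. Ifit3 shows both, at 14.44 and 30.02 FPKM in AAV-Ctrl and 59.54 with AAV-IL-27.

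**Figure D4:**
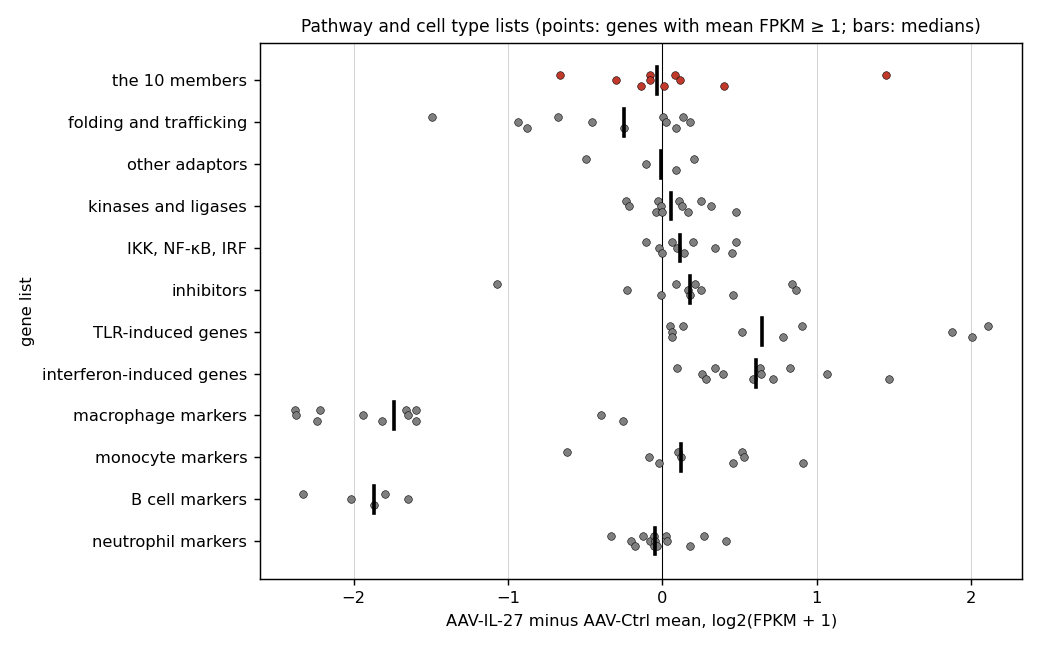
AAV-IL-27 minus the AAV-Ctrl mean on the log2(FPKM + 1) scale for every gene of each list that averages 1 FPKM or more (points), with the median of each list (black bars) and the 10 members in red. Of the 10 members, 6 lie within 0.2 of 0. Cd14 (1.45) and Tlr9 (0.40) lie to the right of these and Tlr1 (-0.66) and Tlr4 (-0.30) to the left. Most macrophage and all B cell markers lie far to the left.

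Markers of other cells differed between the libraries, and their part in the members' values was not tested. By at least 1 log2 unit, 2.32% of all genes were lower in AAV-IL-27. Of 12 macrophage markers, 10 were lower by as much. The summed level of the 12 was 982.7 and 956.9 FPKM in AAV-Ctrl and 351.9 with AAV-IL-27, with 0 markers listed at 0 throughout. All 5 B cell markers with a mean FPKM of at least 1 were lower by at least 1, and the summed level of 7 B cell markers was 29.3, 39.1 and 4.24 FPKM. All 8 erythroid markers were lower by at least 1 too, and their summed level was 14752 and 9868 FPKM with the empty vector and 1680 with AAV-IL-27. Of 7 T and NK cell markers, 1 averaged 1 FPKM or more. Genes used by every cell had a median of -0.15, with B2m, the light chain of MHC class I, higher by at least 0.5 at 1578, 1640 and 2614 FPKM. With 1 AAV-IL-27 library, every gene that was lower with AAV-IL-27, Tlr1 and Tlr4 among them, was lower in the same library as the macrophage, B cell and erythroid markers. The design fixes this shared direction, so nothing is drawn from it.

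Monocytes carry much Cd14. Of the 9 monocyte markers that averaged 1 FPKM or more, 5 lay above the AAV-Ctrl range and 2 below it. Over all genes, 38.9% lay above and 41.9% below. The part of monocytes in the value of Cd14 was not tested. The summed FPKM of the list was 1179 and 1246 in AAV-Ctrl and 1302 with AAV-IL-27, most of it Ly6c2 (1023, 1086 and 1145 FPKM), and the median log2 difference of 9 monocyte markers was 0.12 (0.34 without AAV-Ctrl 2), with Fn1 higher and Irf8 lower by at least 0.5. Fn1 was at 1.71, 2.01 and 4.37 FPKM, and Irf8 at 7.49, 7.89 and 4.66 FPKM. Ccr2, F13a1 and Ms4a6c were at 1.74, 1.56 and 1.52 times their AAV-Ctrl means without meeting the threshold of 0.5 against both libraries. Ccr2 (1.43, 1.61 and 2.64 FPKM) and F13a1 (2.05, 2.06 and 3.2 FPKM) were low. At such levels the pseudocount of 1 makes differences come out smaller. Plasmacytoid dendritic cells carry Tlr7 and Tlr9, and 9 of 10 dendritic markers were under 1 FPKM in every library, with Siglech at 0.34, 0.39 and 0.33 FPKM. The exception was Itgax, an integrin gene shared with other myeloid cells, at 17.28, 11.89 and 24.64 FPKM. The 14 neutrophil markers had a median log2 difference of -0.049, and 0 of them met the threshold of 0.5, beside 8.58% of all genes.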

How the data were processed

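RNA-seq was performed by the authors on BM Ly6G+ cells, with oligo-dT enrichment and strand-marked cDNA. The FPKM values were computed and deposited by the authors with 2 decimals for 16073 rows, of which 1 without a symbol was left out. The build is mm10 per the labels, and the aligner, counter and annotation are not given in the sources used here. In the table, 1 column of per-sample values belongs to no listed sample and was left aside.

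Members and lists were chosen with earlier results of these data known. Genes averaging 1 FPKM or more (9130, among them all 10 members) were called at 1 or 0.5 log2 units beyond each AAV-Ctrl library, with a pseudocount of 1. Named genes are the members, 10 set relatives and up to 4 called genes a list. Tnf, Il1a, Il1b, Cxcl1, Ticam2, Irak2, Siglech, Itgax, S100a9, Ly6g, Ly6c2, Ccr2, F13a1, Ms4a6c and Acaa1a were named after their values were seen. Depth was fitted to 212, 190 and 191 low values of genes with 1 transcript of known GENCODE M21 length minus 70 nt. Of these, 83.0%, 82.1% and 83.8% lay nearer to a whole fragment than to the midpoint between whole fragments. Evenly spread values would give 50% at a depth fixed beforehand. The depths and the 70 nt were chosen to fit these same values, so the shares are no independent check. Fragment numbers are therefore estimates, and their intervals describe counting error and test nothing. Fragment numbers of genes with several transcripts use their mean length. Sequences are from RefSeq (GRCm38.p6) and transcripts were compared with BLAST 2.17.0. Tables were made with pandas 2.3.3 and scipy 1.17.1 under Python 3.11.15. A planned comparison of the proteins was not made. The script was tested on simulated data. Alternatives were pseudocounts of 0.1 and 0.01, rescaling, other filters and leaving out an AAV-Ctrl library.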

Additional observations from a re-analysis of the deposited data

How the results depend on the processing

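Over the 6 alternatives run for each member (pseudocounts of 0.1 and 0.01, rescaling to equal totals or by median ratio, and leaving out either AAV-Ctrl library), the log2 difference of Cd14 ranged from 1.35 to 1.55, that of Tlr1 from -1.14 to -0.54, that of Tlr9 from 0.30 to 0.67 and that of Tlr4 from -0.36 to -0.24. Cd14 remained the member called higher and Tlr1 the member called lower at 0.5. Tlr2, at 0.012, was -0.098 with AAV-Ctrl 2 left out and 0.12 with AAV-Ctrl 1 left out. The median of the members, -0.033, was 0.0078 with equal totals, and ranged from -0.12 without AAV-Ctrl 2 to 0.054 without AAV-Ctrl 1. Rescaling shifted the all-gene median by 0.037 at most.

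The count of lower genes at 1 log2 unit, 212, became 397 and 426 with pseudocounts of 0.1 and 0.01, and 93 (from 640 to 220 at 0.5) above a mean of 5 FPKM. That of higher genes, 28, became 46 with a pseudocount of 0.01. Without an AAV-Ctrl library it was 40 and 49 at 1 and 235 and 223 at 0.5, where the comparison is with 1 library.

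With pseudocounts of 0.1 and 0.01 the list medians were -0.012 and -0.013 for other adaptors, 0.20 with either for inhibitors, 0.705 and 0.711 for TLR-induced genes, -1.90 and -1.91 for macrophages and -2.87 and -2.94 for B cells. With equal totals they were -0.21 for folding and trafficking, 0.031 for other adaptors, 0.15 for IKK, NF-κB and IRF genes, 0.21 for inhibitors, -0.0082 for neutrophils, -1.70 for macrophages and -0.11 for genes used by every cell. Without a filter they were -0.028 for other adaptors and 0.13 for TLR-induced genes.
Leaving out either AAV-Ctrl library, the medians ranged from -0.16 to -0.13 for genes used by every cell, 0.027 to 0.079 for kinases and ligases, 0.14 to 0.16 for IKK, NF-κB and IRF genes, -1.80 to -1.78 for macrophages, 0.076 to 0.34 (without AAV-Ctrl 2) for monocytes, 0.15 to 0.17 for inhibitors and 0.57 to 0.63 for TLR-induced genes.
The cause of these shifts was not tested. No paired analysis was possible because the labels number the libraries within each group and state no pairing of mice. The AAV-IL-27 library could not be left out.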
